A study of Mus musculus with 12 samples.

Results

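NRF2 and its targets other than the glutathione transferases were examined in mouse liver, by the genes Nfe2l2, Nqo1, Gclc, Gclm, Hmox1, Srxn1, Txnrd1, Gsr, Cbr3 and Osgin1. These 10 genes were taken by symbol from a count table of 35275 genes, and each symbol stood in the table once. Male C57Bl/6J mice aged 13 weeks ate chow or, for 1 week, food containing 0.5% norUDCA, and liver RNA was sequenced. NorUDCA, norursodeoxycholic acid, is the side chain-shortened relative of the bile acid ursodeoxycholic acid. Each diet had 6 libraries, numbered chow 2, 3, 7, 8, 16 and 17 and norUDCA 9, 10, 11, 12, 13 and 20 after the labels. In the labels every one of these numbers follows WT, the usual short form of wild type. Whether each library was made from its own animal is not in the labels, and p-values measure only the spread between these libraries, which may be technical.

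NRF2, encoded by Nfe2l2, is a transcription factor that is held low by KEAP1, an adaptor that hands it to a CUL3 ubiquitin ligase for degradation. Electrophiles and oxidants modify cysteines of KEAP1, NRF2 then accumulates, and with a small MAF protein it binds antioxidant response elements near its target genes, whereas BACH1 represses many of the same genes. In liver the pathway is known for glutathione synthesis, quinone and carbonyl reduction, the thioredoxin system and haem breakdown. NRF2 is regulated largely at the level of the protein, which was not measured here.

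Total counts per library ran from 12209706 to 15342922, and every norUDCA total was above every chow total. Summed hepatocyte markers (Alb, Apoa1, Apob, Ttr, Tat and Pck1) held 65698 to 82881 CPM (counts scaled to a common library size) under chow and 66454 to 80159 CPM under norUDCA, although Apoa1, Apob and Tat fell. Chow 2 stood apart, with the highest share of counts in the 50 most abundant genes, 39.9%, against at most 37.3% in the other chow libraries, and the highest summed cholangiocyte markers of the chow libraries, 102 CPM. Lung transcripts were present in norUDCA 11 and norUDCA 12. The secretoglobin gene Scgb1a1 had 3546 and 3439 counts there and at most 4 elsewhere, and the surfactant protein gene Sftpc had 2506 and 1750 counts there and at most 4 elsewhere. A list of 10 lung genes, chosen after these values were seen, summed to 482 and 400.3 CPM in these libraries and to 2.78 to 11.4 CPM in the other 10. Their part in the results was not tested, and values without both libraries stand beside the results whose call, direction or size they change most.

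Short matches to the antioxidant response element are shown because these letters name the site through which the family is defined. RefSeq promoters (GRCm38.p6, 250 bases before to 50 after the start) were found for 7 of the 10 genes, 9 promoters in all. Txnrd1 had 3 of them. Gclc, Hmox1 and Gsr had no promoter there and were not searched. The core TGACNNNGC was searched on both strands, and 4 genes held it, each at 1 site. Of all 32851 promoters of the same length, 12.4% held a match, a share per promoter and not per gene. The AP-1 site TGACTCA occurred in 2 of the 7 genes and in 5.20% of all promoters, and no match of one motif overlapped one of the other. Capitals mark the match, written 5′ to 3′ on the strand that carries it.
Nfe2l2 (chr2:75704887-75704911, minus strand, 240 bases before the start): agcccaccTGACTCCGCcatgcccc
Gclm (chr3:122245415-122245439, minus strand, 134 bases before the start): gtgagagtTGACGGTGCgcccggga
Txnrd1 (chr10:82859106-82859130, minus strand, 92 bases before the start): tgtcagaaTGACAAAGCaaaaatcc
Srxn1 (chr2:152105544-152105568, minus strand, 29 bases after the start): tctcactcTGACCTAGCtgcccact
Srxn1, AP-1 (chr2:152105414-152105436, minus strand, 102 bases before the start): cagcgtggTGACTCAggccctcc
Srxn1, AP-1 (chr2:152105471-152105493, minus strand, 45 bases before the start): ccggccgcTGACTCAgggtgaat
Osgin1, AP-1 (chr8:119437042-119437064, plus strand, 97 bases before the start): gcccctgcTGACTCAcgcttatg
A match describes these letters only, and distances are from the RefSeq start. For Osgin1 that start lies downstream of the start listed for the gene. The Osgin1 site therefore falls inside the listed span, 119434124 to 119446256. Nqo1 and Cbr3, the genes with the highest fold changes below, had a promoter in the table and no match to either motif in it. Sites farther from the start were not searched for any gene, so a missing match does not show that a gene lacks the element.

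Under norUDCA 6 of the 10 genes rose and 0 fell. In order of fold change Nqo1, Cbr3, Gclc, Srxn1, Gsr and Gclm rose, from 3.83-fold to 1.38-fold, whereas Nfe2l2, Txnrd1, Osgin1 and Hmox1 did not pass the test. Calls rest on edgeR's quasi-likelihood test over the 12378 genes with enough counts, at an adjusted p (Benjamini-Hochberg) under 0.05. Of all tested genes 6.73% were called higher and 8.62% lower, 15.3% in all. The median log2 fold change of the 10 genes was 0.55, beside -0.0015 over all tested genes. The 10 genes were chosen with earlier results of these data known, so these values describe the list and do not test it. In 4 of the risen genes (Nqo1, Gclc, Gclm and Gsr) every norUDCA library lay above every chow library, a gap that 3.59% of all tested genes showed in that direction and 7.66% in either. All 10 genes passed the filter on low counts, but Cbr3 reached its cutoff of 0.72 CPM in only 1 chow library and passed through the norUDCA libraries, where it is high. Among the other 9 genes 5 rose.

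**Figure D1:**
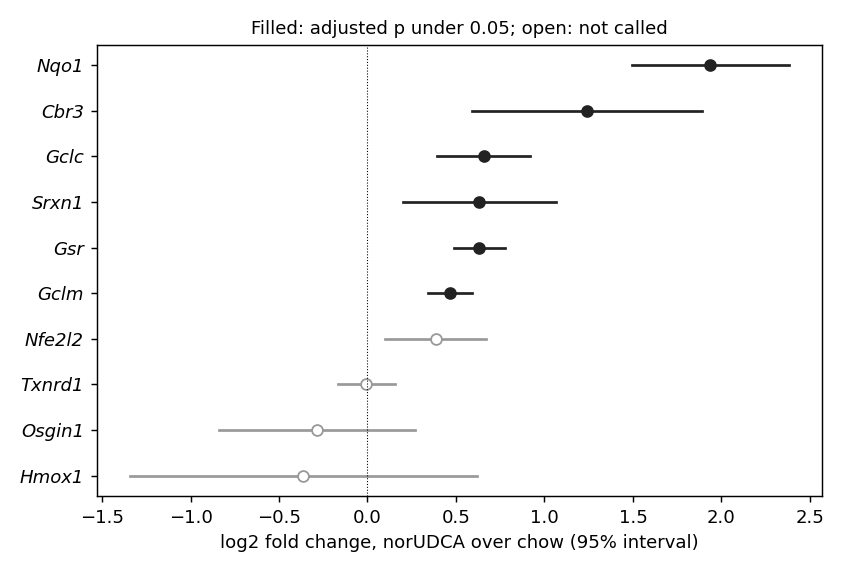
Log2 fold change of norUDCA over chow for each gene (point) with its 95% interval (line), from edgeR with 6 libraries per diet. Filled points passed the test and run from 0.47 for Gclm to 1.94 for Nqo1, and the open points of Txnrd1, Osgin1 and Hmox1 have intervals that include 0, while that of Nfe2l2 runs from 0.10 to 0.67.

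Without norUDCA 11 and 12, 4 of the genes rose, since Srxn1 (edgeR, adjusted p = 0.102) and Cbr3 (adjusted p = 0.0622) lost their calls. The log2 fold changes of the 6 genes were then 1.95 for Nqo1, 1.15 for Cbr3, 0.67 for Srxn1, 0.64 for Gsr, 0.54 for Gclc and 0.48 for Gclm. Fewer libraries entered that fit. In it 572 genes (4.57% of the 12516 tested) were called higher and 578 (4.62%) lower, against 833 and 1067 with all libraries.

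**Figure D2:**
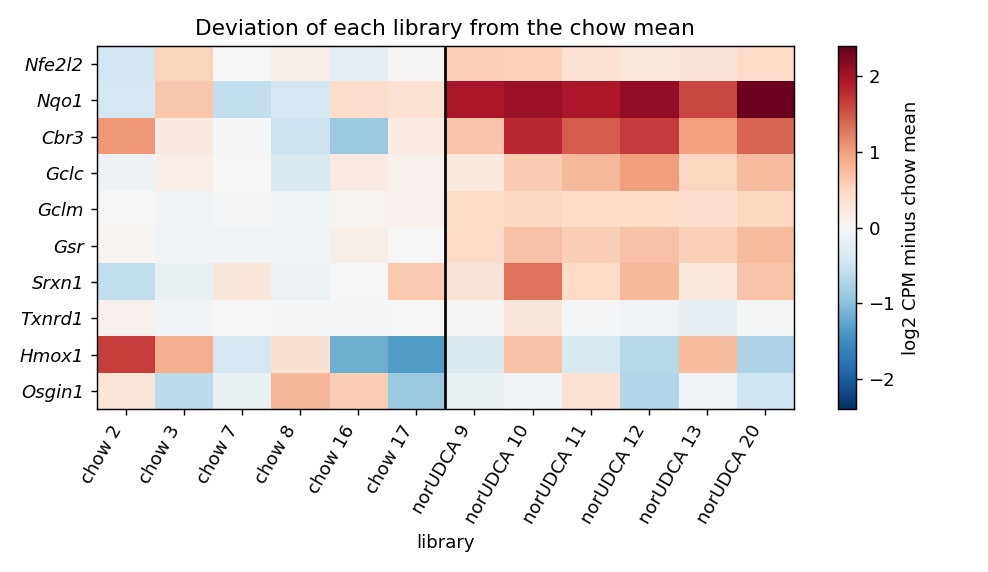
Log2 CPM of each gene (rows) in each library (columns) minus the gene's mean over the chow libraries, with red above and blue below that mean. The Nqo1 row is 1.61 to 2.36 above the chow mean in all norUDCA libraries, the Txnrd1 row stays between -0.20 and 0.27, and the Hmox1 row runs from 1.65 in chow 2 to -1.33 in chow 17.

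Nfe2l2 (ENSMUSG00000015839, chromosome 2, 75675513 to 75704641), the gene of NRF2 itself, had 23.7, 32.8 and 47.2 CPM as the lowest, median and highest chow library. Under norUDCA the corresponding values were 38.7, 43.0 and 48.8 CPM. Every norUDCA library was above the chow median, but chow 3, the highest of the chow libraries, lay above 4 of them. The means were 33.4 ± 8.01 and 43.6 ± 4.12 CPM (SD, n = 6), and the log2 fold change of 0.38 ± 0.13 (SE) missed the threshold in edgeR's test (adjusted p = 0.0641). Without chow 3 it passed, at 0.51 (adjusted p = 0.00498). It also passed with upper quartile scaling (adjusted p = 0.0469) or total count scaling (adjusted p = 0.0129), with DESeq2 (adjusted p = 0.0379) and with limma-voom (adjusted p = 0.0467).

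Among 14 tested regulators and partners of NRF2 1 rose and 0 fell, when 6.73% of all tested genes were called higher. Their median log2 fold change was 0.01. The riser was Sqstm1, which encodes p62, an autophagy receptor that binds KEAP1, and it went from 430 ± 36.8 to 533 ± 49.1 CPM (SD, n = 6; edgeR, adjusted p = 0.0193). That call was lost without chow 7 (adjusted p = 0.0549), without chow 8 (adjusted p = 0.0530) and without both norUDCA 11 and 12 (adjusted p = 0.0969). Keap1 had 30.9 ± 2.48 and 36.6 ± 3.90 CPM (SD, n = 6; edgeR, adjusted p = 0.0594). It passed with upper quartile scaling (adjusted p = 0.0403) or total count scaling (adjusted p = 0.00484), with DESeq2 (adjusted p = 0.0363) and without chow 16 (0.0409), norUDCA 9 (0.0323) or norUDCA 11 (0.0465). Mafg, a small MAF partner, had a log2 fold change of 0.15 (adjusted p = 0.419) and Bach1 one of -0.15 (adjusted p = 0.615), which was 0.00308 with scaling by total counts. With that scaling 4 of the 14 genes rose, when 19.6% of all tested genes were called higher.

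Nqo1 (ENSMUSG00000003849, chromosome 8, 107388225 to 107403206) encodes NAD(P)H quinone dehydrogenase, which reduces quinones by 2 electrons and is the usual marker of NRF2 activity. Chow libraries had 1.79, 2.74 and 4.26 CPM as the lowest, median and highest value, from 21 to 54 counts. Under norUDCA the lowest was 8.24 CPM, the median 10.9 CPM and the highest 13.8 CPM, from 129 to 224 counts. The lowest norUDCA library, 13, stood well above the highest chow library, 3. The log2 fold change was 1.94 ± 0.21 (SE; edgeR, adjusted p = 3.33e-05), the largest of the 10 genes, and it ranged from 1.84 to 2.09 over the fits that left out 1 library.

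The paralog Nqo2, a quinone reductase with other co-substrates, rose 1.35-fold, from 66.5 ± 12.5 to 90.0 ± 4.38 CPM (SD, n = 6; edgeR, adjusted p = 0.0144), a call lost without norUDCA 11 and 12 (adjusted p = 0.0534). The ratio of Nqo1 to Nqo2 per length does not depend on the scaling between libraries. It averaged 0.109 ± 0.0288 in the chow libraries and 0.312 ± 0.0395 in the norUDCA libraries (SD, n = 6). Its ranges, 0.0714 to 0.144 and 0.248 to 0.368, did not overlap (2-sided exact permutation p = 0.00216, adjusted p = 0.0108 over 5 ratios), and no regrouping of 6 against 6 libraries can give a smaller p.

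Cbr3 (ENSMUSG00000022947, chromosome 16, 93683215 to 93690990) encodes a carbonyl reductase and was the least abundant of the 10 genes. Its raw counts were 4 to 15 under chow and 14 to 32 under norUDCA. In CPM the lowest, median and highest chow libraries were at 0.327, 0.648 and 1.25, and those of norUDCA at 0.975, 1.64 and 2.14. Chow 2 was the highest chow library and lay above norUDCA 9 and 13. Cbr3 rose with a log2 fold change of 1.24 ± 0.30 (SE; edgeR, adjusted p = 0.0135), and the call held in all 12 fits that left out 1 library.

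Cbr1, its more abundant neighbour in the carbonyl reductase family, rose from 45.7 ± 8.88 to 86.1 ± 12.7 CPM (SD, n = 6; edgeR, adjusted p = 0.000284). The Cbr3 to Cbr1 ratio per length averaged 0.0163 ± 0.0102 in the chow libraries and 0.0195 ± 0.00447 in the norUDCA libraries (SD, n = 6). The difference did not pass (exact permutation p = 0.253, adjusted p = 0.317). The chow mean of the ratio was set by chow 2, at 0.0361 against at most 0.0160 in the other chow libraries. Without chow 2 the difference in mean log2 ratio was 0.68 (exact permutation, adjusted p = 0.0433) in place of 0.41. Reads of these related genes could be assigned to one another, and the sources used here do not say how the authors treated such reads.

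Among 17 tested genes of carbonyl, aldehyde and quinone metabolism 8 rose and 1 fell, with a median log2 fold change of 0.35. Akr1b7, 1 of the 8, had 4 to 22 counts under chow and 18 to 59 under norUDCA. Like Cbr3, it passed the filter on low counts through the norUDCA libraries, where it is high. Ephx1, the microsomal epoxide hydrolase, rose from 345 ± 63.1 to 859 ± 108 CPM (SD, n = 6; edgeR, adjusted p = 1.94e-05). Aox1, an aldehyde oxidase, rose from 124 ± 20.4 to 288 ± 41.8 CPM (SD, n = 6; edgeR, adjusted p = 2.04e-05). Its paralog Aox3 was the gene that fell, from a chow mean of 959.5 ± 195 to a norUDCA mean of 522 ± 31.2 CPM (SD, n = 6; edgeR, adjusted p = 0.000158). Over all settings tried 7 to 11 of these genes rose and 1 fell. The 11 came with total count scaling, when 19.6% of all tested genes were called higher.

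**Figure D3:**
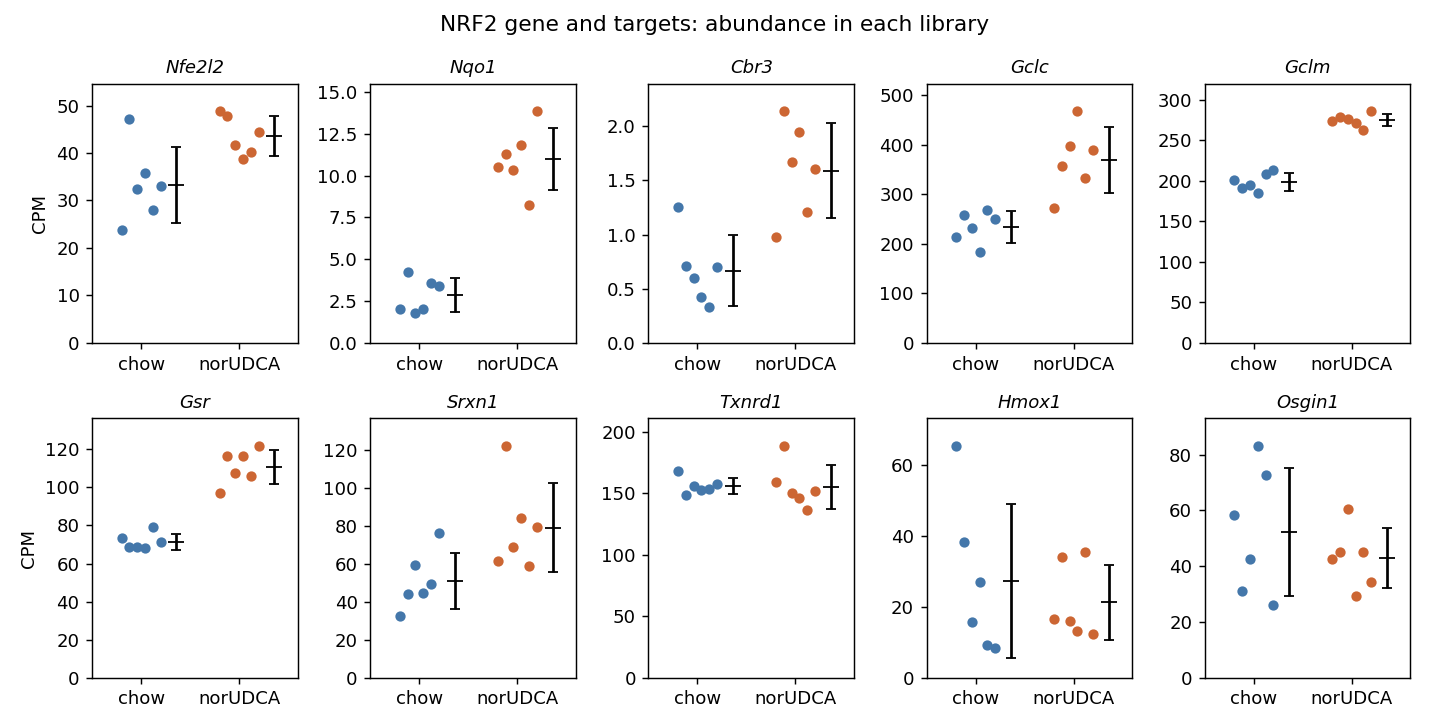
CPM of each gene in each library, with its own linear axis from 0, and the mean with SD in black. The diets are separated in Nqo1, Gclc, Gclm and Gsr, overlap in Srxn1, Cbr3 and Nfe2l2, and one diet's range lies within the other's in Txnrd1, Hmox1 and Osgin1.

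Gclc, Gclm and Gsr, of glutathione synthesis and recycling, each rose. Gclc and Gclm encode the catalytic and the modifier subunit of glutamate-cysteine ligase, the rate-limiting enzyme of glutathione synthesis, and Gsr encodes glutathione reductase, which returns oxidised glutathione to its reduced form with NADPH. Gclc (ENSMUSG00000032350, chromosome 9, 77754535 to 77794485) had 183, 241.5 and 267 CPM as the lowest, median and highest chow library and 272.5, 373 and 467 CPM under norUDCA. The gap between the diets was narrow, from 267 CPM in chow 16 to 272.5 CPM in norUDCA 9. Its log2 fold change was 0.66 ± 0.12 (SE; edgeR, adjusted p = 0.00267).

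Gclm (ENSMUSG00000028124, chromosome 3, 122245557 to 122269984) had 185, 198 and 214 CPM as the lowest, median and highest chow library. Under norUDCA these values were 263, 275 and 286 CPM. Its libraries were the tightest of the 10 genes under norUDCA, with a coefficient of variation (SD over mean) of 2.79%, and the log2 fold change was 0.47 ± 0.06 (SE; edgeR, adjusted p = 0.000118). The table holds 2 genes that overlap Gclm, which averaged 5.67 counts together.

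The ratio of Gclm to Gclc per length was 0.608 ± 0.0708 under chow and 0.540 ± 0.0987 under norUDCA (SD, n = 6), with a difference in mean log2 ratio of -0.18 (exact permutation p = 0.175, adjusted p = 0.292). The ranges, 0.522 to 0.714 and 0.410 to 0.709, overlapped, with norUDCA 11, 12 and 20 below the lowest chow library. The difference was -0.11 without norUDCA 12 and -0.06 without both norUDCA 11 and 12 (exact permutation, adjusted p = 0.422 and 0.719), and -0.26 to -0.11 over all fits that left out 1 library. A change in the balance of the subunits was not detectable with these libraries.

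Gsr (ENSMUSG00000031584, chromosome 8, 33652523 to 33698163) had 68.2, 70.1 and 79.0 CPM as the lowest, median and highest chow library and 97.2, 112 and 122 CPM under norUDCA. The lowest norUDCA library, 9, was above the highest chow library, 16, and the log2 fold change was 0.63 ± 0.07 (SE; edgeR, adjusted p = 3.48e-05). Leaving out 1 library moved it between 0.62 and 0.68.

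Of 17 tested genes of glutathione synthesis, peroxidases and glutaredoxins 4 rose and 1 fell. Slc3a2, the heavy chain shared by several amino acid exchangers, rose 1.37-fold from 33.2 ± 1.86 CPM (SD, n = 6; edgeR, adjusted p = 0.000284). Glrx, the cytosolic glutaredoxin, rose 1.69-fold (edgeR, adjusted p = 0.000510), and the phospholipid hydroperoxide peroxidase gene Gpx4 rose 1.29-fold (adjusted p = 0.00654). The little expressed Gpx7 rose from 0.708 ± 0.319 to 2.44 ± 0.474 CPM (SD, n = 6; edgeR, adjusted p = 0.000614). Gpx7 had 5 to 15 counts under chow and 24 to 42 under norUDCA. Like Cbr3, it passed the filter on low counts through the norUDCA libraries, where it is high. Oplah, the oxoprolinase of glutathione turnover, fell, from a chow mean of 129 ± 7.13 to a norUDCA mean of 107 ± 10.1 CPM (SD, n = 6; edgeR, adjusted p = 0.0191). The Oplah call was lost with total count scaling (adjusted p = 0.209), when 7 of the list rose and 0 fell, without the filter on low counts (0.0522), without norUDCA 11 (0.0548) and without both norUDCA 11 and 12 (0.120). In the fits without norUDCA 11 and without both, 1 other gene of the list fell. With DESeq2, with limma-voom, without chow 2 and without chow 3, 2 of the list fell. Gpx1, a glutathione peroxidase, had 1759 ± 176 and 1447 ± 147.5 CPM (SD, n = 6) and just missed the threshold (edgeR, adjusted p = 0.0528). Gss, the enzyme of the last step of glutathione synthesis, did not pass (64.4 ± 4.87 and 57.6 ± 4.95 CPM, SD, n = 6; edgeR, adjusted p = 0.152). Slc7a11, the cystine carrier that is a usual NRF2 target in cultured cells, had at most 0.190 CPM as a diet mean and was not tested.

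Srxn1 (ENSMUSG00000032802, chromosome 2, 152105516 to 152111376) encodes sulfiredoxin, which restores peroxiredoxins whose active cysteine has been overoxidised. The lowest, median and highest chow libraries had 32.6, 47.0 and 76.0 CPM, and those of norUDCA 58.6, 74.2 and 122 CPM. Chow 17 lay above 3 of the norUDCA libraries, and norUDCA 10 was the highest of all. Srxn1 rose with a log2 fold change of 0.63 ± 0.20 (SE; edgeR, adjusted p = 0.0472). The call was lost without chow 2 (adjusted p = 0.0807), chow 3 (0.0803), chow 7 (0.0613), chow 8 (0.0956) or chow 16 (0.0792). It was also lost without norUDCA 10 (adjusted p = 0.0973), norUDCA 11 (0.0576), norUDCA 12 (0.0799) or norUDCA 20 (0.0772), while the log2 fold change stayed between 0.48 and 0.79.

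Txnrd1 (ENSMUSG00000020250, chromosome 10, 82859206 to 82897724), the cytosolic thioredoxin reductase and a selenoprotein, differed between the diets by less than the spread of its libraries. It had 148.5, 155 and 168 CPM as the lowest, median and highest chow library and 136, 151 and 188 CPM under norUDCA. The fitted fold was 0.995, with a 95% interval from 0.891 to 1.11 (edgeR, adjusted p = 0.966). Total counts as the scaling shifted all genes upward by a median of 0.15 log2, and the Txnrd1 log2 fold change was then 0.14 (adjusted p = 0.158). The ratio of Txnrd1 to its substrate gene Txn1 per length averaged 0.251 ± 0.0170 in the chow libraries and 0.226 ± 0.0298 in the norUDCA libraries (SD, n = 6). The difference did not pass (exact permutation p = 0.102, adjusted p = 0.254).

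Of 14 tested genes of the thioredoxin and peroxiredoxin system 1 rose and 0 fell, when 6.73% of all tested genes were called higher. The riser was Prdx6, a peroxiredoxin that is reduced with glutathione, from 390 ± 53.0 to 502 ± 33.6 CPM (SD, n = 6; edgeR, adjusted p = 0.0170). Txn1, the cytosolic thioredoxin, averaged 192 ± 9.43 and 213 ± 19.5 CPM in the chow and norUDCA libraries (SD, n = 6; edgeR, adjusted p = 0.164). It passed with scaling by total counts (adjusted p = 0.00987), when 6 of these genes rose and 19.6% of all tested genes were called higher. Of 4 superoxide and hydrogen peroxide enzymes 2 rose, the extracellular Sod3 by 1.38-fold (adjusted p = 0.00512) and the cytosolic Sod1 by 1.24-fold (adjusted p = 0.0162).

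Hmox1 (ENSMUSG00000005413, chromosome 8, 75093591 to 75100596), the inducible haem oxygenase, varied more between libraries than any other of the 10 genes. Its lowest, median and highest chow libraries had 8.24, 21.3 and 65.2 CPM, a span of 7.91-fold, and those of norUDCA 12.4, 16.2 and 35.4 CPM. Chow 2 was the highest library and chow 17 the lowest, so the chow range contained that of norUDCA. The log2 fold change was -0.36 ± 0.46 (SE), with a 95% interval of the fold from 0.394 to 1.54 (edgeR, adjusted p = 0.644). It was 0.11 without chow 2 (adjusted p = 0.885) and -0.13 without norUDCA 11 and 12 (adjusted p = 0.910). It ranged from -0.55 to 0.11 over the fits that left out 1 library, so its direction depends on chow 2.

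Hmox1 is also expressed in Kupffer cells, the resident macrophages of the liver. Of 10 Kupffer cell and macrophage markers 6 fell under norUDCA and 0 rose, with summed levels of 162 to 383 CPM under chow and 92.8 to 202 CPM under norUDCA, and none of them was at 0 in all libraries. The count was 3 without chow 7, norUDCA 9, norUDCA 12 or norUDCA 20, and 4 without chow 8, chow 16, norUDCA 10 or norUDCA 11. It was 4 with total count scaling and 1 without both norUDCA 11 and 12. In bulk RNA fewer cells of a type and less RNA per cell cannot be told apart. Chow 2, with the most Hmox1, had the lowest summed marker level of the chow libraries, 162 CPM. The part of these cells in the Hmox1 values was not tested.

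Of 8 tested genes of haem breakdown and iron storage 5 rose and 0 fell, in every setting tried. Fth1 and Ftl1, the heavy and light subunits of ferritin, rose from 1070 ± 93.3 to 1728 ± 155 CPM and from 3380 ± 208 to 5315 ± 523 CPM (SD, n = 6; edgeR, adjusted p = 0.000110 and 0.000253). Blvrb, a biliverdin reductase, rose 1.76-fold (adjusted p = 0.000146), and the haem transporter Slc48a1 rose 1.98-fold (adjusted p = 3.56e-06). The fifth was Slc40a1, the iron exporter ferroportin, which rose 2.39-fold (adjusted p = 0.000281). Hmox2, the constitutive haem oxygenase, had 38.0 ± 2.25 and 34.8 ± 1.56 CPM (SD, n = 6; adjusted p = 0.180). The ratio of Hmox1 to Hmox2 per length was 0.773 ± 0.630 for chow and 0.660 ± 0.340 for norUDCA (SD, n = 6; 2-sided exact permutation p = 0.965). The difference in mean log2 ratio was 0.015, and 0.24 without norUDCA 11 and 12.

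Osgin1 (ENSMUSG00000074063, chromosome 8, 119434124 to 119446256), named for a growth inhibitor induced by oxidative stress, had 26.0, 50.5 and 83.0 CPM as the lowest, median and highest chow library. The norUDCA libraries had 29.3, 43.9 and 60.5 CPM and lay within the chow range. The log2 fold change was -0.29 ± 0.26 (SE), with a 95% interval of the fold from 0.559 to 1.21 (edgeR, adjusted p = 0.503). It stayed below 0 in each of the fits that left out 1 library, between -0.42 and -0.11, without a call.

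**Figure D4:**
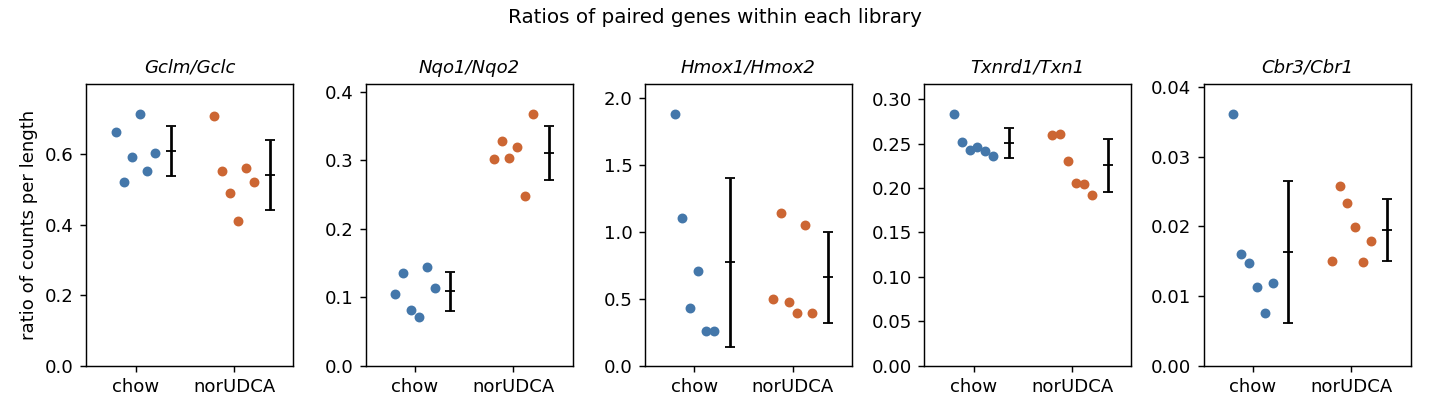
Ratio of counts per length of 5 gene pairs within each library (points), with the mean and SD of each diet in black. Nqo1/Nqo2 is the pair whose diets do not overlap, at 0.0714 to 0.144 and 0.248 to 0.368, and chow 2 is the high point in the chow libraries of Hmox1/Hmox2, Txnrd1/Txn1 and Cbr3/Cbr1.

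The levels of the genes can be set in order per length, as CPM per kilobase of the listed gene length (RPKM). Gclc was the most abundant under chow at 68.4 ± 9.22 RPKM (SD, n = 6), followed by Txnrd1 at 45.7 ± 1.91, Gclm at 41.1 ± 2.28 and Gsr at 26.8 ± 1.57 RPKM. The library ranges of Txnrd1 and Gclm overlapped, while Gclc lay above both and Gsr below. The range of Gsr fell within that of Osgin1. Osgin1 at 22.7 ± 9.97, Srxn1 at 18.1 ± 5.32, Hmox1 at 16.96 ± 13.6 and Nfe2l2 at 13.5 ± 3.24 RPKM formed a group whose ranges overlapped (SD, n = 6). Nqo1 at 1.84 ± 0.667 and Cbr3 at 0.571 ± 0.276 RPKM were far lower. Under norUDCA Gclc (108 ± 19.3 RPKM), Gclm (56.7 ± 1.58), Txnrd1 (45.5 ± 5.22) and Gsr (41.5 ± 3.34) led (SD, n = 6). Gclm and Txnrd1 had changed places, though their norUDCA ranges met, at a lowest 54.3 RPKM for Gclm and a highest 55.1 RPKM for Txnrd1. Nqo1 reached 7.08 ± 1.19 RPKM and was still ninth of the 10 genes.

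**Figure D5:**
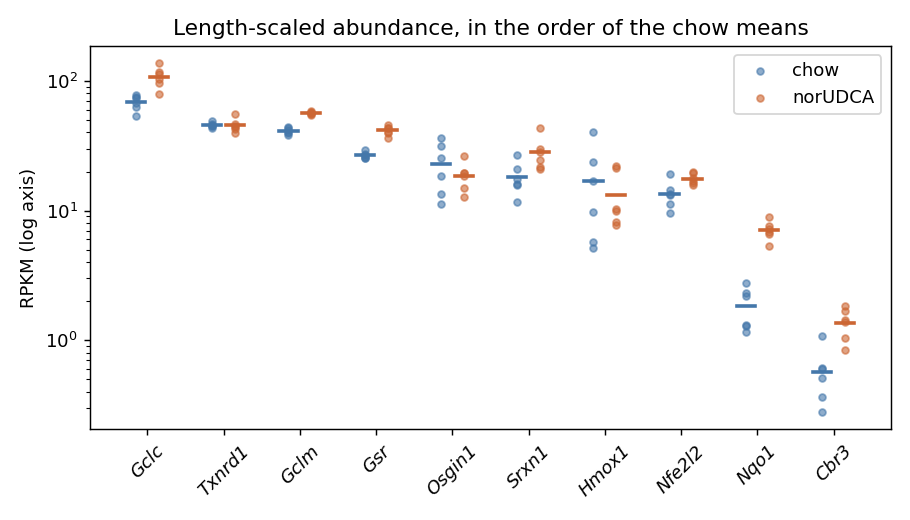
RPKM (log axis) of each gene in each library, chow in blue and norUDCA in orange, with the diet mean as a bar, ordered by the chow mean. Gclc is highest and Cbr3 lowest under both diets, and Nqo1 moves from 1.84 to 7.08 RPKM without changing its place in the order.

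Shared variation of gene pairs within a diet did not pass the test. For the deviations from the diet means over 12 libraries, 0 of 45 pairs passed after adjustment by either measure, and 3 had an unadjusted permutation p of Pearson's r under 0.05. These were Gclm with Gsr (r = 0.566, permutation p = 0.0353; rho = 0.692, p = 0.0171), Gclc with Gsr (r = 0.652, permutation p = 0.0371; rho = 0.657, p = 0.0304) and Nqo1 with Gclc (r = 0.561, permutation p = 0.0436; rho = 0.622, p = 0.0356). Their adjusted permutation p of r over the 45 pairs was 0.5585 or more, and that of rho 0.418 or more. Without the 2 libraries farthest from the median of the first gene r was 0.696, 0.335 and 0.633 in the same order. The pair of Gclc and Gsr thus rested largely on those libraries.

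Patterns over the 12 libraries were compared as the root mean square difference of log2 CPM from the chow mean. Closest to Nfe2l2 were Cyp4f15 (difference 0.12), Tmem86b (0.13) and Rpusd4 (0.13). Closest to Nqo1 were Ces1g (0.18), Akr1c19 (0.24) and Abcc3 (0.33), which had log2 fold changes of 1.89, 1.90 and 1.99 in edgeR's fit. Both diets entered the difference, so fold changes close to that of Nqo1 follow from the choice.

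Of 9 genes of NADPH supply, on which Nqo1, Gsr and Txnrd1 draw, 2 rose and 1 fell. Without chow 3, 4 rose and 0 fell, when 7.17% of all tested genes were called higher. With total count scaling 5 rose and 0 fell, when 19.6% of all tested genes were called higher. Tkt, the transketolase, rose from 135 ± 9.44 to 212 ± 16.4 CPM (SD, n = 6; edgeR, adjusted p = 3.44e-05), and the isocitrate dehydrogenase Idh1 rose 1.27-fold (adjusted p = 0.00559). Taldo1, the transaldolase, fell, from a chow mean of 123 ± 7.47 to a norUDCA mean of 103 ± 11.5 CPM (SD, n = 6; edgeR, adjusted p = 0.0404). The Taldo1 call was lost under 12 of 18 alternatives and without norUDCA 11 and 12 (adjusted p = 0.201). G6pdx, the entry enzyme of the pentose phosphate pathway, had 4.84 ± 0.667 and 3.76 ± 1.41 CPM (SD, n = 6; adjusted p = 0.284). Of 21 tested glutathione transferases 14 rose and 1 fell, with a median log2 fold change of 0.98, beside 0.55 for the 10 genes described here. Both sets were chosen with earlier results of these data known, so these medians only describe them. Gstm3, Gstm1, Gsta1 and Gstm2 led the transferases by p, with log2 fold changes of 4.93, 2.39, 5.86 and 2.43, all above that of Nqo1. Gsta1 had 9 to 35 counts under chow and passed the filter on low counts through the norUDCA libraries, where it is high.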

How the data were processed

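The authors deposited raw read counts per gene for the 12 libraries, made from TRIzol-extracted liver RNA by the NEBNext method. The deposited table also lists each gene's length. CASAVA, STAR and DESeq2 are listed in the submitters' processing notes, while their versions, the counter and the genome build were not given in the sources used here. Positions are those of the table, and 7 of the 10 genes had the same position in GENCODE M21 (GRCm38). Further deposited tables hold the authors' own fold changes and p-values and were not used.

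Counts were tested with edgeR 4.0.16 (R 4.3.3): quasi-likelihood F test, TMM scaling, filterByExpr (minimum count 10), no covariate, Benjamini-Hochberg over 12378 genes. CPM used the TMM factors. The standard error is the log2 fold change over the square root of F. Ratios were tested by 2-sided exact permutation, and pair correlations by permutation within diets (100000 resamples). Pattern likeness used log2(CPM + 0.01). The pipeline was tested on simulated counts. Alternatives used DESeq2 1.42.0, limma-voom (limma 3.58.1), other scalings, no filter, and each library left out in turn. The fit without norUDCA 11 and 12 was chosen after seeing the data. RefSeq promoters came from a table on GRCm38.p6. The genes and lists were chosen with earlier results of these data known. Named were the 10 genes and, whatever their values, Keap1, Mafg, Bach1, Txn1, Slc7a11, Cbr1, Nqo2, Hmox2, Gss and G6pdx. From each list other than the cell type markers, up to 4 called genes of smallest p were named too. So were the 3 nearest patterns of Nfe2l2 and of the gene with the smallest p, among tested genes outside the 10 genes and the lists. Oplah, Slc40a1, Akr1b7, Gpx1 and the lung genes were named after their values were seen.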

Additional observations from a re-analysis of the deposited data

Results flagged for a closer look

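A library far from the other 5 of its diet was found in 4 of 38 groups of values by Dixon's test, where chance flags about 1 in 20, and all 4 were chow 2. Its Txnrd1 to Txn1 ratio per length was 0.284, against 0.252 for the next chow library. The Cbr3 to Cbr1 ratio per length was 0.0361 in chow 2, against 0.0160 for the next. Chow 2 also had 39.9% of its counts in the 50 most abundant genes, with 37.3% in the next, and 4.13% mitochondrially encoded counts, with 5.61% in the next. No gene of the 10 had an outlying library in its CPM by this test.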

How the results depend on the processing

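Calls of Nqo1, Gclc, Gclm and Gsr held under all 18 alternatives tried and without norUDCA 11 and 12. Scaling by total counts gave 2428 genes higher and 565 lower over all genes (81.1% of the calls higher, against 43.8%), and without norUDCA 11 and 12, 578 genes were lower. Of the 10 genes 7 rose with scaling by upper quartile or total counts, DESeq2 or limma-voom, when 7.98%, 19.6%, 8.64% and 6.68% of all tested genes were higher, and 5 to 6 rose when 1 library was left out (4.97% to 7.17% of all tested genes). Txnrd1 changed sign around 0: its log2 fold change was 0.000649 with DESeq2 size factors in edgeR, 0.0218 with upper quartile, 0.14 with total counts, 0.00887 without the filter, 0.000577 with DESeq2, 0.0386 without norUDCA 11 and 12 and -0.0549 to 0.0424 when 1 library was left out. With total counts Bach1 had 0.00308 and Hmox2 0.0235. When 1 library was left out Hmox1 ranged from -0.55 to 0.11, the difference in mean log2 ratio from -0.22 to 0.35 for Hmox1/Hmox2, from -0.26 to -0.11 for Gclm/Gclc and from 0.23 to 0.68 for Cbr3/Cbr1. The cause of these changes was not tested. No paired analysis was possible because the diets share no replicate number. Depth limits Cbr3, with as few as 4 counts in a library.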

Other observations

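Cbr2, a carbonyl reductase of the same list as Cbr3 that had too few counts across libraries to be tested, had 475 counts in norUDCA 11 and 457 in norUDCA 12 and 0 to 2 in each of the other 10 libraries. It was singled out after its values were seen, and these are the 2 libraries that held the lung transcripts Scgb1a1 and Sftpc.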
